A study of Mus musculus with 6 samples.

Results

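Chemokines are small secreted proteins that guide the movement of leukocytes by binding receptors coupled to G proteins. Transcripts of 8 chemokine genes, Ccl1, Xcl1, Ccl3, Ccl4, Ccl5, Ccl9, Ccl22 and Cxcl10, were followed here in activated CD8 T cells of the mouse, the cytotoxic lymphocytes. The genes were taken by name from the 22095 gene rows of the deposited table, and each had exactly 1 gene row and no separate transcript row. The set was chosen by the difference in TPM between ponatinib and DMSO, with Ccl1, Xcl1, Ccl3 and Ccl4 known to be higher with ponatinib, so the levels of all 8 are a description, without a test.

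Naive CD8 T cells had been purified from spleens of wild type C57BL/6 mice, an inbred laboratory strain. Stimulation lasted 48 h and used anti-CD3 and anti-CD28 antibodies, which engage the T cell receptor complex and a costimulatory receptor, with recombinant mouse IL-2 in RPMI. Treated cells received 10 nM ponatinib, a multikinase inhibitor developed against BCR-ABL, and the control cells received its solvent DMSO, with 3 libraries in each group. Levels are in TPM, a relative abundance of transcripts whose sum is the same in every library. They are scaled by transcript length and can be compared between genes. Whether replicates came from separate mice or cultures is not given in the labels. Any p-value therefore reflects only the spread between these libraries, and that spread may be technical.

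Activated CD8 T cells are known to release CCL3, CCL4 and CCL5, which recruit further leukocytes, and XCL1, which attracts cross-presenting dendritic cells through XCR1. CCL1 is the ligand of CCR8. CCL22 is the ligand of CCR4 and is known best from dendritic cells and macrophages, CCL9 is a ligand of CCR1 known from mouse myeloid cells, and CXCL10 is an interferon-induced ligand of CXCR3. Members of the CC family have adjacent first cysteines, CXCL10 has an intervening residue, and XCL1 lacks one of the cysteine pairs.

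Of the 8 genes, 5 lie on chromosome 11 of GRCm38 by the GENCODE M21 annotation. Ccl3 spans 83647844 to 83649355 on the minus strand, and Ccl4 spans 83662584 to 83664683 on the plus strand, so that a gap of 13.2 kb separates them. Ccl9 lies 69.2 kb before Ccl3, at 83572919 to 83578636, and Ccl5 lies 42.4 kb before Ccl9, at 83525778 to 83530518, both on the minus strand. Ccl1 lies 1220.1 kb before Ccl5 on the same chromosome, where its annotated span on the minus strand runs from 82176657 to 82305690. Xcl1 spans 164931644 to 164935527 of chromosome 1 on the minus strand, Ccl22 spans 94745590 to 94751699 of chromosome 8 (plus strand), and Cxcl10 spans 92346638 to 92348889 of chromosome 5 (minus strand). All are protein-coding genes.

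Upstream sequences of 4 genes are shown because their levels stand for the patterns described below: Ccl1, Xcl1 and Ccl3 were higher with ponatinib, and Cxcl10 was not. Each is the 250 bases before the RefSeq start (GRCm38.p6), read 5′ to 3′ in the direction of the gene. The windows are chr11:82179813-82180062 for Ccl1, chr1:164935523-164935772 for Xcl1, chr11:83649379-83649628 for Ccl3 and chr5:92348890-92349139 for Cxcl10, all on the minus strand. Capitals mark matches on either strand to GGAAA (the NFAT core), TGTGGT (RUNX), TGANTCA (AP-1) and a pair of GAAA with any 2 bases between them (a form of the interferon-stimulated response element, ISRE).
Ccl1: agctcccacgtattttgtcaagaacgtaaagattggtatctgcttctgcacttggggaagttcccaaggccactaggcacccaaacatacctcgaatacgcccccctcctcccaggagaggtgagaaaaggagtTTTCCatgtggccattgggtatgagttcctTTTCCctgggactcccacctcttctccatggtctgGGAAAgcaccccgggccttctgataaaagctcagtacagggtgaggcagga
Xcl1: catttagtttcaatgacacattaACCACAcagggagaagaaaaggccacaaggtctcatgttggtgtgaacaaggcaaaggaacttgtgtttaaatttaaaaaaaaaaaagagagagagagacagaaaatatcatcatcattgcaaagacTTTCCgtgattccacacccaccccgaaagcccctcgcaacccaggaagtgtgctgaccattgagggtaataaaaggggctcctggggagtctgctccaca
Ccl3: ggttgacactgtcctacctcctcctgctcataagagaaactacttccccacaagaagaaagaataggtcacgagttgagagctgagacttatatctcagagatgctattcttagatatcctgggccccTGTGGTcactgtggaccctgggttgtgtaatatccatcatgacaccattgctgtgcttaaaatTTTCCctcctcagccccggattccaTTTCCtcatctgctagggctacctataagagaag
Cxcl10: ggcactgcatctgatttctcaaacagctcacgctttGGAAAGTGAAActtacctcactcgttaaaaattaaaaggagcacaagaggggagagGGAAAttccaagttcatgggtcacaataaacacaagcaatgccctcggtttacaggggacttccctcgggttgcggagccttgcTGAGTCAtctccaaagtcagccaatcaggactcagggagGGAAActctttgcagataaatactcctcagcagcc

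GGAAA occurred 3 times in the Ccl1 window, once in that of Xcl1, and 2 times in that of Ccl3. It is a short motif, found in 55.6% of 32851 RefSeq promoter windows of the same length. TGTGGT was matched in the windows of Xcl1 and Ccl3 and in 14.0% of all windows. The Cxcl10 window held 1 match to the ISRE form, present in 2.98% of all windows, and 1 match to TGANTCA, present in 6.75%. The response element began 213 bases before the start and overlapped 1 of the 3 GGAAA matches of that window. A form of the NF-kB site, GGGA and TTTCC with any 1 base between them, was searched as well and was found in 0.356% of all windows and in none of the 6 member windows in the table. Those 6 also include Ccl9, with 2 matches to GGAAA and 1 to TGANTCA, and Ccl22, with no match; Ccl4 and Ccl5 were not matched there. These are matches of letters only. Other forms of the NF-kB site were not searched, so their share among all windows is unknown. Stretches close to the searched form do stand in the printed windows. Cxcl10 holds GGGAAATTCC, which overlaps a GGAAA match, and GGGACTTCCC, and Ccl1 holds GGGAAGTTCC. The absence of the searched form is therefore not an absence of such sites.

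Ccl1 showed the widest separation between the groups. Its level was 146, 141 and 153 TPM in the ponatinib libraries, against 0.327, 1.09 and 0 TPM in DMSO replicates 1, 2 and 3. All 3 ponatinib libraries lay above 100 TPM, while the gene was at or near 0 in every DMSO library. The group means were 147 ± 6.37 TPM with ponatinib and 0.472 ± 0.559 TPM with DMSO (SD, n = 3 each), a difference of 6.72 in log2(TPM + 1), and of 8.63 with a pseudocount of 0.1. Ranked among all gene rows, Ccl1 stood between place 851 and place 913 in the ponatinib libraries. The annotated Ccl1 locus holds 3 transcripts, 1 of which spans the long region, and the gene row does not tell them apart.

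Xcl1 was the most abundant of the 8 chemokine transcripts with ponatinib, at 3178, 3267 and 3007 TPM in the ponatinib libraries, against 698, 798 and 498 TPM in the DMSO libraries. The groups did not overlap, and the mean was 4.74 times as high with ponatinib, at 3151 ± 132 TPM against 665 ± 152 TPM (SD, n = 3 each). Among all gene rows Xcl1 ranked between 56 and 62 with ponatinib and between 151 and 226 with DMSO. DMSO replicate 3 had the lowest Xcl1 level, and without it the ratio of means was 4.21.

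Ccl3 and Ccl4, which encode the leukocyte attractants often known as MIP-1 alpha and MIP-1 beta, varied little between libraries of the same group. Ccl3 measured 1275, 1453 and 1359 TPM in the ponatinib libraries, against 644, 625 and 679 TPM in the DMSO libraries. Ccl4 measured 789, 841 and 806 TPM in the ponatinib libraries, against 416, 402 and 430.1 TPM in the DMSO libraries. Both genes were higher in every ponatinib library than in any DMSO library, with ratios of means of 2.10 for Ccl3 and 1.95 for Ccl4. The SD was 6.52% of the mean with ponatinib and 4.18% with DMSO for Ccl3, and 3.24% with ponatinib and 3.38% with DMSO for Ccl4.

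The proportion of Ccl3 to Ccl4 was similar in all libraries, though slightly higher with ponatinib and without overlap. The Ccl3 level divided by the Ccl4 level was 1.62, 1.73 and 1.69 in the ponatinib libraries and 1.55, 1.56 and 1.58 in the DMSO libraries. Xcl1 divided by Ccl3 was 2.49, 2.25 and 2.21 in the ponatinib libraries, against 1.08, 1.28 and 0.735 in the DMSO libraries. Xcl1 was thus above Ccl3 in all ponatinib libraries, while the ranges of both genes overlapped with DMSO.

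Ccl9 was a low-level transcript, at 7.30, 7.20 and 6.94 TPM in the ponatinib libraries, against 2.27, 2.74 and 1.13 TPM in the DMSO libraries. Its groups did not overlap and its mean was 3.49 times as high with ponatinib. Ccl22 stood near the bottom of the measurable range, at 1.02, 1.47 and 1.54 TPM in the ponatinib libraries, against 0.253, 0.214 and 0.366 TPM in the DMSO libraries. The Ccl22 groups did not overlap either, and the ratio of means was 4.84, but all 6 values were under 2 TPM. On the log2(TPM + 1) scale, which shrinks differences of low genes, Ccl9 differed by 1.46 and Ccl22 by 0.87.

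Ccl5 and Cxcl10 did not share this pattern, and 1 DMSO library decided their group means. Ccl5, which encodes the T cell and monocyte attractant also called RANTES, measured 39.4, 37.3 and 29.4 TPM in the ponatinib libraries, against 26.6, 21.6 and 99.4 TPM in DMSO replicates 1, 2 and 3. The Ccl5 groups overlapped, because the highest and the lowest levels were both in DMSO libraries. Its mean was 35.4 ± 5.25 TPM with ponatinib and 49.2 ± 43.6 TPM with DMSO (SD, n = 3 each), a ratio of 0.719, and without DMSO replicate 3 the ratio was 1.47. The direction of the Ccl5 difference therefore turned when that library was left out.

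Cxcl10 measured 4.94, 4.71 and 5.24 TPM in the ponatinib libraries, against 5.20, 7.29 and 36.8 TPM in DMSO replicates 1, 2 and 3. The ponatinib libraries lay within a narrow range that touched the lowest DMSO library. The mean was 4.96 ± 0.267 TPM with ponatinib and 16.4 ± 17.7 TPM with DMSO, a ratio of 0.302, and the ratio was 0.795 without DMSO replicate 3. Cxcl10 reached a mean of 10 TPM over the 6 libraries only through that library.

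**Figure D1:**
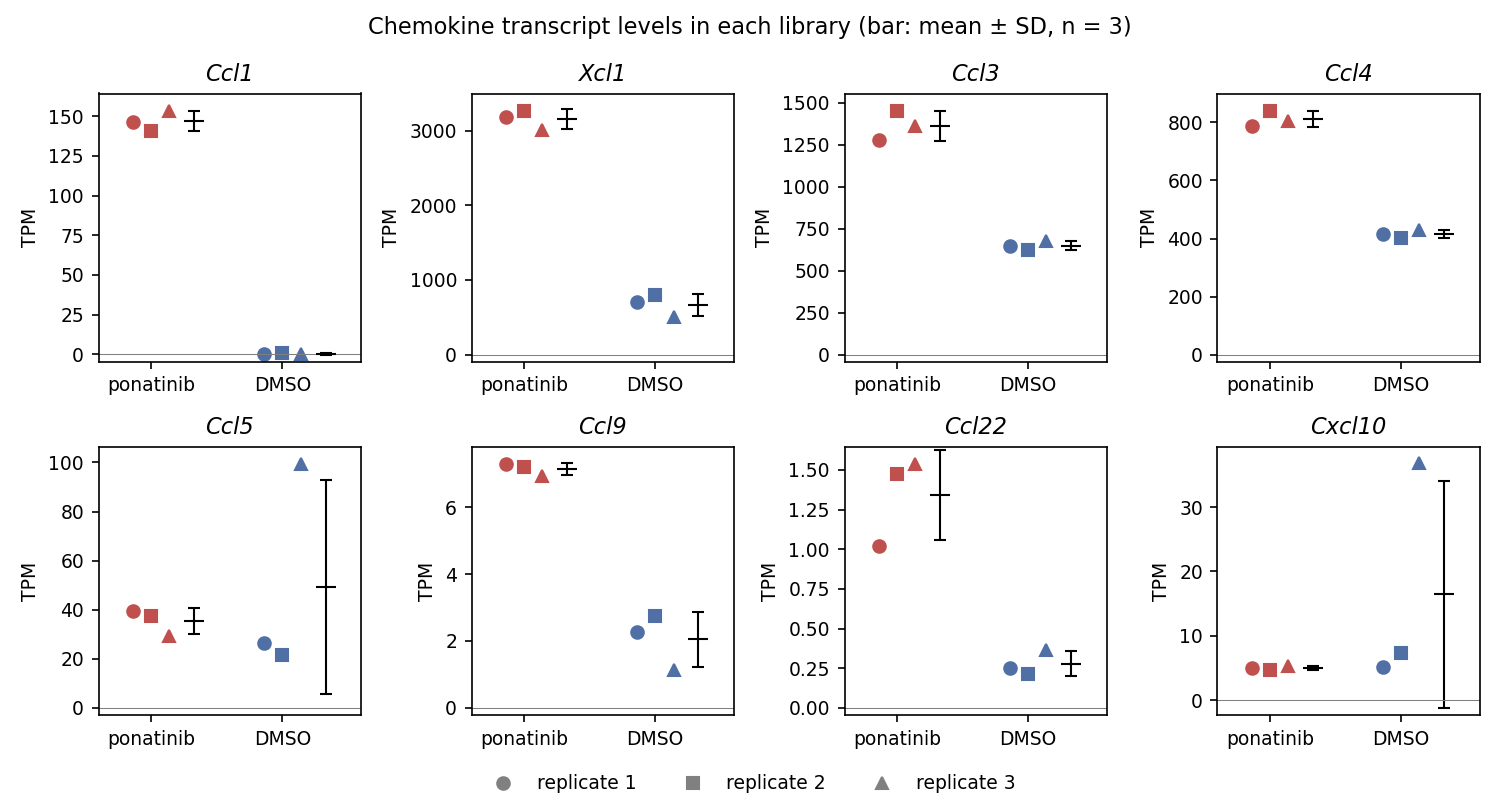
Levels (TPM, linear axes) of the 8 chemokine genes in the 3 ponatinib libraries (left, red) and the 3 DMSO libraries (right, blue), with 1 symbol per replicate number and a bar for the mean ± SD. The groups are apart for Ccl1, Xcl1, Ccl3, Ccl4, Ccl9 and Ccl22, whereas for Ccl5 and Cxcl10 DMSO replicate 3 lies far above all other libraries, at 99.4 and 36.8 TPM.

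Counted together, 6 of the 8 genes were higher in every ponatinib library than in any DMSO library, 0 were lower in all, and 2 overlapped. For comparison, ponatinib was wholly above for 39.4% and wholly below for 14.0% of the 6466 gene rows with a mean of at least 10 TPM, and limma called 29.9% of those rows higher and 9.88% lower. The count of the chemokines follows from how they were chosen, and nothing is read from it. At the minimum of 10 TPM 6 of the 8 genes were kept, Ccl1 only through the ponatinib libraries, and Ccl9 and Ccl22 were under it. Among all 6466 rows the ratio of means was at least 1.9 for 0.804%, and at least 2 for 0.68%. Ccl4 lay just under a ratio of 2 and Ccl3 just above it.

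Summed over the 8 genes, chemokine transcripts came to 5441, 5752 and 5369 TPM in the ponatinib libraries, against 1793, 1858 and 1745 TPM in the DMSO libraries. They made up 0.552% ± 0.0204 of all TPM with ponatinib and 0.180% ± 0.00567 with DMSO (SD, n = 3 each). Most of that sum was Xcl1, Ccl3 and Ccl4, which together held between 92.1% and 98.2% of it in every library. The make-up of the sum differed: Xcl1 held 58.4%, 56.8% and 56.0% in the ponatinib libraries and 38.9%, 42.9% and 28.6% in the DMSO libraries, and Ccl3 held 24.7% ± 1.07 with ponatinib and 36.2% ± 2.63 with DMSO. Ccl1 held 2.66% ± 0.206 of the sum with ponatinib and 0.0256% ± 0.0300 with DMSO. In total RNA of a cell mixture, a larger share of cells with a transcript and more of it per cell cannot be told apart.

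**Figure D2:**
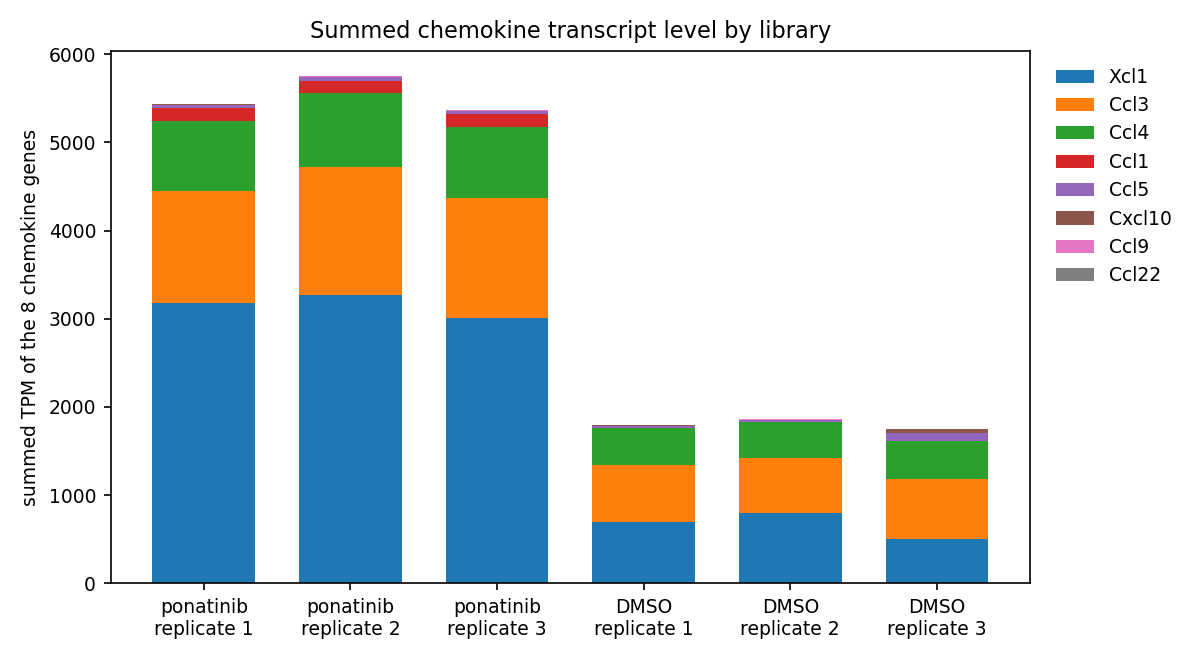
Stacked bars of the TPM of the 8 chemokine genes in each library, ponatinib libraries on the left and DMSO libraries on the right. The ponatinib bars reach 5369 to 5752 TPM and the DMSO bars 1745 to 1858 TPM, and Xcl1 (blue, at the base) is the largest segment of every ponatinib bar.

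The order of the levels changed between the groups. With ponatinib it was Xcl1, Ccl3, Ccl4, Ccl1, Ccl5, Ccl9, Cxcl10 and Ccl22, and the libraries of each gene lay wholly above those of the next. With DMSO it was Xcl1, Ccl3, Ccl4, Ccl5, Cxcl10, Ccl9, Ccl1 and Ccl22. There the ranges of Xcl1 and Ccl3, of Ccl5 and Cxcl10, and of Ccl1 and Ccl22 overlapped. Within each DMSO library Ccl5 was above Cxcl10, while Xcl1 was below Ccl3 and Ccl1 below Ccl22 in DMSO replicate 3 alone. Ccl1 stood above Ccl5, Ccl9 and Cxcl10 with ponatinib and below all 3 with DMSO.

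DMSO replicate 3 stood apart from the other DMSO libraries for some members and not for others. Relative to the mean of DMSO replicates 1 and 2, it had 5.89 times as much Cxcl10 and 4.13 times as much Ccl5, whereas Ccl3 and Ccl4 were within 1.07 and 1.05 times. Xcl1 was at 0.667 and Ccl9 at 0.450 of that mean, Ccl22 was at 1.57 times, and Ccl1 was listed at 0. Over all 6466 kept rows the median of this ratio was 1.07, it was at least 4 in 0.0928%, and at most 0.7 in 0.526%. The rows at 4 or more numbered 6, and Ccl5 and Cxcl10 are among them. Cxcl10 was kept only through DMSO replicate 3, and Ccl9 and Ccl22 were not kept, so these shares are not independent of the members. Mitochondrially encoded genes held 5.15% of the gene-row TPM in that library, while they held 7.70% to 8.81% with ponatinib and more than 10% in the other DMSO libraries. The part of this difference between libraries in the chemokine levels was not tested.

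**Figure D3:**
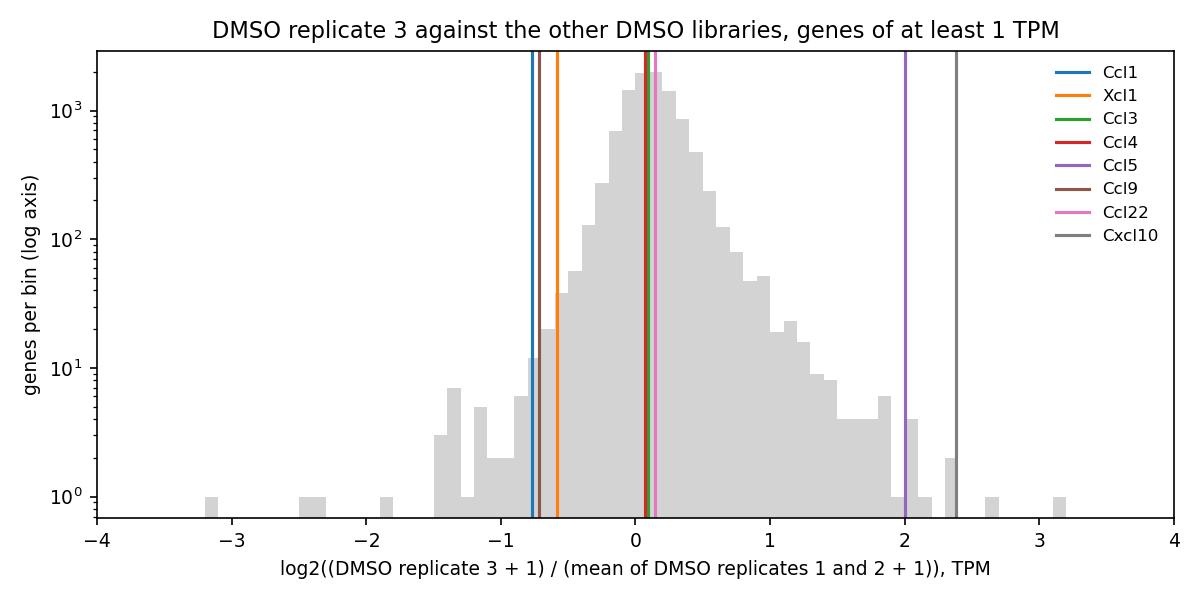
Histogram (grey, log count axis) of DMSO replicate 3 relative to the mean of DMSO replicates 1 and 2, as a log2 ratio after adding 1 TPM, for the 10039 gene rows with a mean of at least 1 TPM, with a line for each of the 8 chemokine genes. Ccl3, Ccl4 and Ccl22 lie near the peak, Xcl1, Ccl9 and Ccl1 on its left side, and Ccl5 and Cxcl10 in the sparse right tail.

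With each library left out in turn, the log2(TPM + 1) difference of Ccl1 was at least 6.47, that of Xcl1 ranged between 2.08 and 2.41, that of Ccl3 between 1.02 and 1.11 and that of Ccl4 between 0.94 and 0.99. Ccl22 ranged between 0.81 and 0.97. The ratio of means of Ccl9 was 2.85 without DMSO replicate 3. Ccl5 ranged between -0.54 and 0.53 and Cxcl10 between -1.57 and -0.27, the upper end of both being without DMSO replicate 3. Of the 8 genes, Ccl5 alone changed sign.

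**Figure D4:**
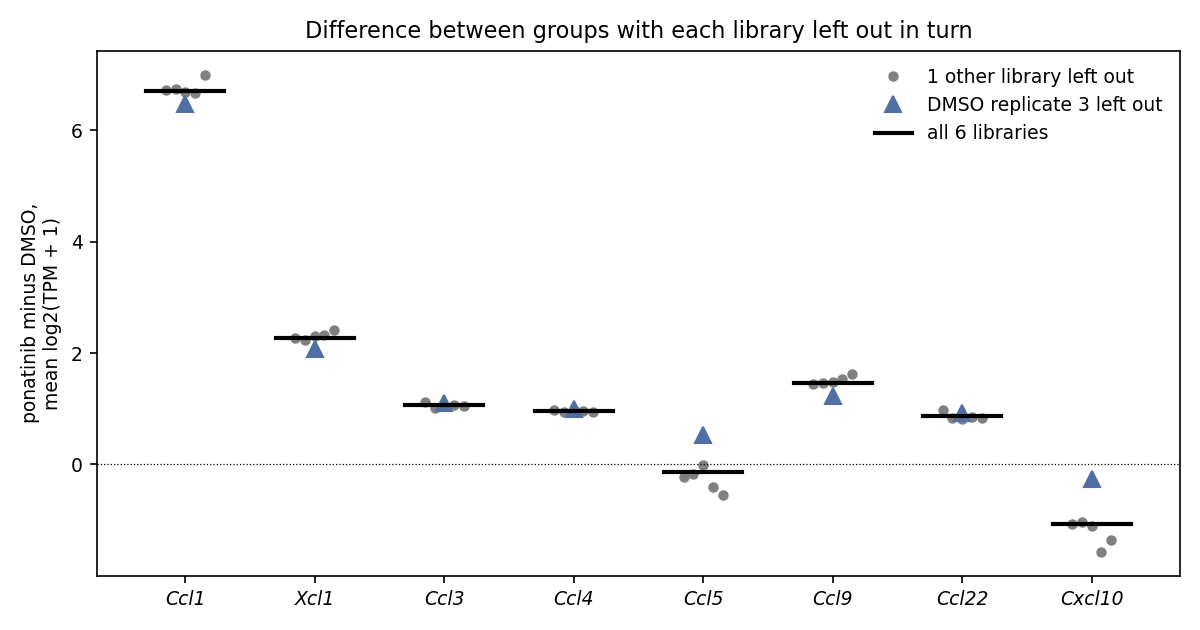
Difference in mean log2(TPM + 1), ponatinib minus DMSO, for the 8 chemokine genes with all 6 libraries (black line), without DMSO replicate 3 (blue triangle) and without each of the other libraries (grey points). Ccl1, Xcl1, Ccl3, Ccl4, Ccl9 and Ccl22 stay above 0 throughout, Cxcl10 stays below 0, and Ccl5 moves to 0.53 without DMSO replicate 3.

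Other chemokine genes were nearly silent in these cells. Of 30 on a list of the remaining mouse chemokines, 29 had a gene row, none reached a mean of 10 TPM, and 27 stayed under 1 TPM in every library. Ccl2, Ccl7, Ccl8, Ccl11 and Ccl12, the monocyte and eosinophil attractants that lie in the same chromosome 11 cluster as Ccl1, were among 12 genes listed at 0 in all 6 libraries. Ccl25 and Ccl27a, the only ones to reach 1 TPM in a library, did not pass the limma test at a minimum mean of 1 TPM (adjusted p = 0.753 and 0.942).

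Most genes next to the chemokines were low or did not pass the test. Neighbours were the 3 nearest protein-coding gene rows on either side of each member, with other members and non-coding genes passed over. They came to 31 different genes, of which 11 reached a mean of 10 TPM. Of these 11, 2 rose and 0 fell, where 29.9% of all kept rows rose and 9.88% fell. Both lie beside Ccl22: Arl2bp rose by 0.54 on the log2 scale (SE 0.06, limma adjusted p = 6.46e-04), with 53.0, 54.7 and 56.4 TPM in the ponatinib libraries and 35.6, 36.8 and 39.4 TPM in the DMSO libraries, and Ciapin1 rose by 0.27 (SE 0.07, adjusted p = 0.0144). The Ciapin1 call was lost without DMSO replicate 1 (adjusted p = 0.0564), ponatinib replicate 2 (0.0633) or ponatinib replicate 3 (0.0613). Taf15, an RNA-binding protein gene and the one kept neighbour of the Ccl3, Ccl4, Ccl5 and Ccl9 cluster, was at -0.06 (adjusted p = 0.732). Zfp830 beside Ccl1, Nme7, Sft2d2 and Tiprl beside Xcl1, Rspry1 beside Ccl22, and Sdad1, Nup54 and Scarb2 beside Cxcl10 did not pass either, with differences between -0.47 and 0.19. Zfp830 (0.0359) and Nme7 (0.0384) passed without DMSO replicate 3, and Sft2d2 passed at an adjusted p of 0.0127 and 0.0494 without DMSO replicates 2 and 3. Scaling by medians of ratios gave Sft2d2 an adjusted p of 0.0238, and a replicate block gave 0.0331. Sft2d2 averaged 9.55 TPM with ponatinib, so it passed the minimum of 10 TPM only through the DMSO libraries. At a minimum of 1 TPM its limma adjusted p was 0.0697. Atp1b1, a sodium pump subunit gene beside Xcl1 that was under 10 TPM and was named after its values were seen, measured 10.4, 9.46 and 8.95 TPM in the ponatinib libraries and 5.93, 5.85 and 6.91 TPM in the DMSO libraries. At a minimum mean of 1 TPM it rose (limma adjusted p = 0.00478), also with each library left out at that minimum. Art3, which overlaps Cxcl10 on the other strand, was listed at 0 in every library.

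The receptors for these ligands were mostly low in the same cells, except Cxcr3 and Ccr4. Cxcr3, the receptor of CXCL10, rose to 29.3, 26.4 and 29.0 TPM in the ponatinib libraries, against 6.03, 7.04 and 3.82 TPM in the DMSO libraries. The groups did not overlap, and the log2 difference was 2.17 (SE 0.17, limma adjusted p = 2.16e-04), with a range between 1.96 and 2.33 when 1 library was left out. Cxcr3 passed the minimum of 10 TPM only through the ponatinib libraries, and at a minimum of 1 TPM, met in both groups, its adjusted p was 3.03e-04. Ccr4, the receptor of CCL22, measured 15.9, 20.9 and 23.4 TPM in the ponatinib libraries, against 17.5 ± 2.27 TPM with DMSO (SD, n = 3), and did not pass the test (0.18, SE 0.15, adjusted p = 0.366). The ranges of Ccr4 overlapped.

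Ccr8, Ccr1, Ccr3 and Xcr1 were under the minimum of 10 TPM. Ccr8, the receptor of CCL1, was at 0.566, 1.06 and 1.10 TPM in the ponatinib libraries and 0.582, 0.249 and 1.26 TPM in the DMSO libraries. Ccr1, Ccr3 and Xcr1, known from myeloid cells, eosinophils and dendritic cells, stayed under 0.1 TPM in every library.

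Among 16 other chemokine receptor genes only Ccr7, the lymph node homing receptor, was kept at 10 TPM. It fell to 230 TPM, 226 TPM and 231 TPM in the ponatinib libraries, against 373, 368 and 445 TPM in the DMSO libraries (log2 difference -0.78, SE 0.07, limma adjusted p = 4.12e-04). At a minimum mean of 1 TPM 6 were kept, of which 2 rose and 2 fell, Ccr9 and Ccrl2 among them, where 23.9% of all 10039 rows rose and 9.54% fell. Ccr9, a gut homing receptor, was at 13.2, 10.4 and 8.40 TPM in the ponatinib libraries, against 0.0682, 0.160 and 0.162 TPM in the DMSO libraries. Cxcr6, the receptor of CXCL16, rose to 16.5 ± 3.16 TPM with ponatinib, against 2.69 ± 0.728 TPM with DMSO (SD, n = 3 each, limma adjusted p = 3.00e-04). Ccrl2, an atypical chemokine receptor gene, was at 0.876 ± 0.260 TPM with ponatinib and 7.12 ± 4.24 TPM with DMSO (SD, n = 3 each), highest in DMSO replicate 3. Ccr9 passed that minimum only through the ponatinib libraries and Ccrl2 only through the DMSO libraries, so their test is not used. Nothing is read from the counts that include them. Ccr9, Cxcr6 and Ccrl2 were named after their values were seen, and Cxcr6 kept its call with each library left out at the minimum of 1 TPM.

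Signalling genes downstream of chemokine receptors, from G protein subunits to the Rac exchange factor, showed 11 higher and 2 lower among 19 kept genes, where 29.9% and 9.88% of all kept rows were called. Their median log2 difference was 0.16, and that of all kept rows was 0.10. Rac2, a GTPase of the leukocyte cytoskeleton, rose by 0.57 (SE 0.05, limma adjusted p = 3.57e-04), and Rgs3, which shortens G protein signals, rose by 0.54. Arrb1, which encodes beta-arrestin 1, fell to 4.53, 4.03 and 3.78 TPM in the ponatinib libraries, against 15.3, 15.1 and 24.1 TPM in the DMSO libraries, passing the minimum of 10 TPM only through the DMSO libraries (adjusted p = 4.84e-04 at a minimum of 1 TPM), and the G protein subunit gene Gng2 fell by 0.41 on the log2 scale. Scaling by medians of ratios gave 6 higher; with that scaling all kept rows split into 1059 higher and 1166 lower, against 1931 and 639 in the deposited scaling. The number higher was 7 without ponatinib replicate 1 or 2 or DMSO replicate 2, and 6 without ponatinib replicate 3 or DMSO replicate 1. Leaving out 1 library gave 1138 to 2745 higher among all kept rows.

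Chemokines of T cell granules are known to be carried on the proteoglycan serglycin, and the protease DPP4 trims the amino end of several. Of the 3 kept genes of that list none was called by limma at the minimum of 10 TPM, where 29.9% of all kept rows were called higher and 9.88% lower. Srgn, which encodes serglycin, was at 493, 461 and 451 TPM in the ponatinib libraries and 473, 461 and 532 TPM in the DMSO libraries (log2 difference -0.06, SE 0.07, adjusted p = 0.491). Dpp4 and the sulphotransferase gene Chst12 had log2 differences of 0.14 each (adjusted p of 0.209 and 0.321).

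Regulators of mRNA turnover, among them the proteins that bind AU-rich elements of cytokine and chemokine mRNAs, gave 6 higher and 1 lower gene among 8 kept, where 29.9% of all kept rows were higher and 9.88% lower. Their median log2 difference was 0.37, and that of all kept rows was 0.10. Zfp36l1, a decay factor of this family, rose by 0.67 (SE 0.08, limma adjusted p = 8.93e-04), and Zfp36, which encodes tristetraprolin, rose by 0.44. Zfp36l2 rose by 0.24, a call lost with medians of ratios (adjusted p = 0.0946), without ponatinib replicates 1 and 2 (0.0548 and 0.0625) and without DMSO replicate 1 (0.0638). Zc3h12d, a regulator of immune mRNAs, fell to 21.9, 21.6 and 23.1 TPM in the ponatinib libraries, against 33.8, 29.6 and 37.4 TPM in the DMSO libraries. The higher genes include Rc3h1, at 13.9 TPM with ponatinib and 9.40 TPM with DMSO, kept only through the ponatinib libraries. At a minimum of 1 TPM its limma adjusted p was 0.0191. Rc3h1 was named after its values were seen. The number higher was 3 with medians of ratios, 2 without ponatinib replicate 1 or DMSO replicate 1, and 3 without ponatinib replicate 2 or 3. All kept rows gave 1059 higher with medians of ratios and 1138 to 2745 with 1 library left out.

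Transcription factors known from T cell activation and chemokine promoters went both ways. Of the 21 kept, 6 were higher and 9 were lower, where 29.9% of all kept rows were higher and 9.88% lower, so that the number higher was near the background. The lower genes include Fosl2, at 7.17 TPM with ponatinib and 16.9 TPM with DMSO, kept only through the DMSO libraries. At a minimum of 1 TPM its limma adjusted p was 0.00737. Fosl2 was named after its values were seen. Their median was 0.15, and that of all kept rows was 0.10. Egr2, induced by the T cell receptor, rose to 25.2, 26.5 and 28.9 TPM in the ponatinib libraries, against 12.6, 12.8 and 13.3 TPM in the DMSO libraries (log2 difference 0.999, SE 0.07, limma adjusted p = 1.70e-04), and Nfatc2 rose by 0.45. Batf3 fell by 1.98 (SE 0.24, adjusted p = 9.75e-04) and Bhlhe40 by 1.47 (SE 0.17, adjusted p = 8.05e-04), and DMSO replicate 3 was the highest library for both. Rela and Rel, subunits of NF-kB, rose by 0.32 and 0.46, and Tbx21, which encodes T-bet, fell by 0.54; these 3 were named after their values were seen. Without DMSO replicate 3 the number higher was 11, while that of all kept rows went from 1931 of 6466 to 2745 of 6428.

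Interferon gamma and its signalling and response genes, of which Cxcl10 is a known target, comprised 18 kept genes, 10 of them higher and 1 lower, where 29.9% of all kept rows were higher and 9.88% lower. Their median was 0.36, and that of all kept rows was 0.10. Jak1, a kinase of the pathway, rose by 0.59 (SE 0.06, limma adjusted p = 4.98e-04). The guanylate-binding protein genes Gbp3 and Gbp7 rose by 0.91 and 1.04. Ifng itself, named after its values were seen, was at 671, 768 and 789 TPM in the ponatinib libraries, against 216, 229.6 and 665 TPM in DMSO replicates 1, 2 and 3 (adjusted p = 0.0361). Its call was lost without any 1 of the libraries other than DMSO replicate 3, at adjusted p of 0.0851 to 0.111, and also with no filter (0.101) and with robust variance moderation (0.112). Cxcl9, the neighbour of Cxcl10 and another CXCR3 ligand, stayed between 0.314 and 0.561 TPM with ponatinib and between 0.0356 and 0.120 TPM with DMSO. Leaving out 1 library gave 6 to 12 higher genes, the fewest without DMSO replicate 1, and 1138 to 2745 among all kept rows. The member that fell was Iigp1, also named after its value was seen, and 0 were lower with a replicate block and without ponatinib replicate 2 or 3 or DMSO replicate 1 or 2.

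**Figure D5:**
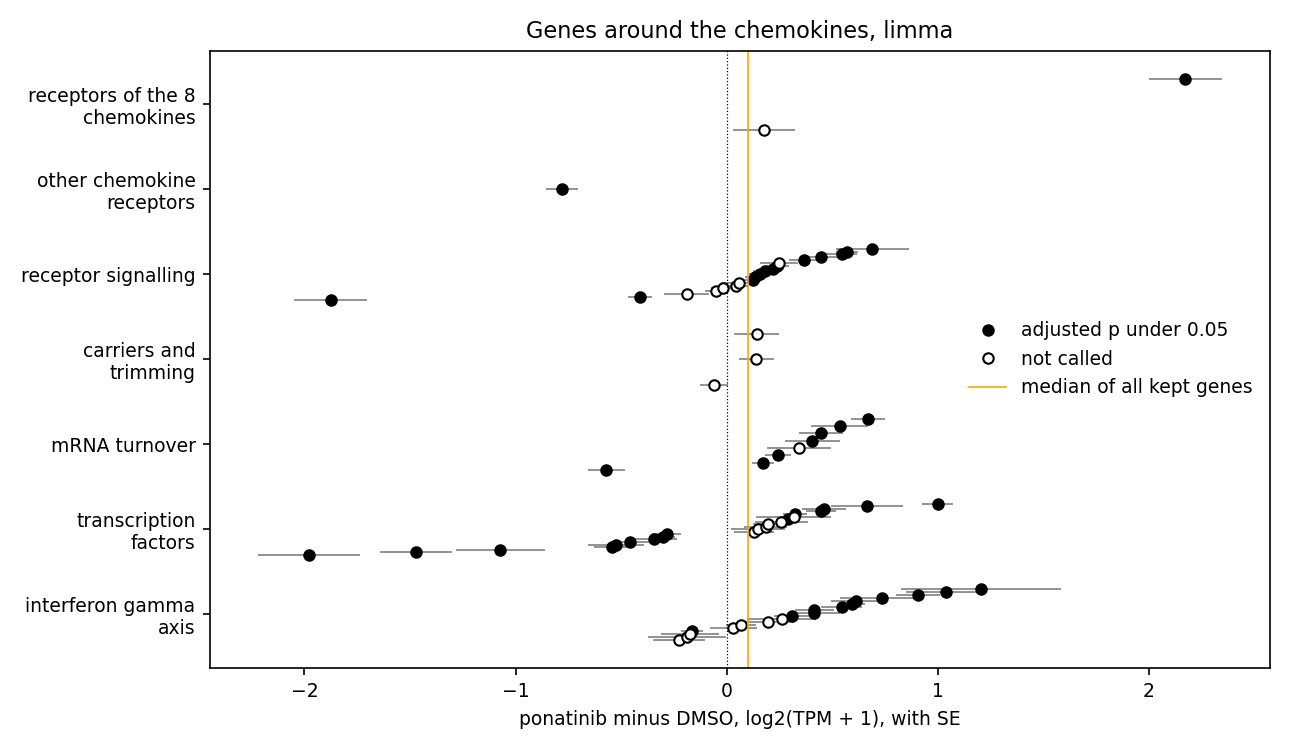
Log2(TPM + 1) differences, ponatinib minus DMSO, with standard errors for kept genes of 7 lists, filled where the limma adjusted p is under 0.05 and open where it is not; the orange line is the median of all 6466 kept rows. Cxcr3 at 2.17 is the rightmost gene, Arrb1 at -1.88 and Batf3 at -1.98 are the leftmost, and the 3 genes of the carrier list are all open.

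Genes whose profile over the 6 libraries was most like that of each chemokine were found by the root mean square difference of log2(TPM + 1), each gene centred on its own mean, among 6460 other kept rows. Xcl1 was nearest to Cxcr3, at 0.0909, followed by the nuclear receptor gene Rxra at 0.0963 and S100a6 at 0.219. Ccl3 was nearest to Egr2 (0.0749), Crtam (0.0798) and Sema4a (0.107), and Ccl4 to Egr2 (0.0642), Tasp1 (0.0804) and Cdc42se2 (0.0868). Ccl9 was nearest to Glipr1, Pou2af1 and Pou2f2, at 0.158 to 0.171, and Ccl22 to Gm28053, Nek6 and Grap, at 0.0454 to 0.0827. For these 2 low genes the likeness depends on the added 1 TPM, and no other pseudocount was used for it. The ratio of means of Ccl22 was 4.84, whereas Gm28053 averaged 25.1 TPM with ponatinib and 13.3 TPM with DMSO. That of Ccl9 was 3.49, whereas Glipr1 averaged 52.4 TPM with ponatinib and 22.7 TPM with DMSO. No profile was close to that of Ccl1, whose nearest genes S1pr1, Ifit1bl1 and Rxra lay at 1.95, 2.18 and 2.27.

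The profiles most like Ccl5 and Cxcl10 were also highest in DMSO replicate 3. They were picked for likeness over the same 6 libraries, so this follows from the pick. Their differences with and without that library follow likewise, and nothing is read from their adjusted p. Isg20, an exonuclease gene, lay nearest to Ccl5 (0.166), with 16.3, 17.2 and 15.2 TPM in the ponatinib libraries and 12.1, 12.9 and 46.1 TPM in DMSO replicates 1, 2 and 3. H2-T24 and Rtp4 followed at 0.197 and 0.284. Of these 3 none passed the limma test, but without DMSO replicate 3 Isg20 was higher with ponatinib by 0.35 (adjusted p = 0.00462) and Rtp4 by 0.46 (adjusted p = 0.00928). Cxcl10 was nearest to the transcription factor gene Irf7 (0.401), to H2-Ab1 (0.410) and to Ifi27l2a (0.433). Irf7 measured 7.96, 5.87 and 5.61 TPM in the ponatinib libraries, against 13.0, 13.5 and 38.7 TPM in the DMSO libraries (log2 difference -1.43, adjusted p = 0.0176), a call lost without ponatinib replicates 2 and 3 (0.0563 and 0.0693) and with no filter (0.0582). Irf7 and H2-Ab1 averaged 6.48 and 9.12 TPM with ponatinib, so they passed the minimum of 10 TPM only through the DMSO libraries. At a minimum of 1 TPM their limma adjusted p was 0.0214 and 0.128.

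The labelled cell type was checked against its markers. All 8 markers of CD8 T cells were present, and their summed level was 2373 to 2605 TPM with ponatinib and 2323 to 2375 TPM with DMSO. Single markers moved in opposite directions within that sum. Cd8a rose to 346 TPM from 238 TPM with DMSO, Cd8b1 to 450 TPM from 322 TPM and Cd3e to 267 TPM from 208 TPM. Cd2 fell to 240 TPM with ponatinib from 420 TPM with DMSO (group means). Cd3d, Cd3g, Cd5 and Lck were not called. Markers of macrophages and monocytes, cells known for Ccl9, Ccl22 and Cxcl10, summed to 5.10 to 6.88 TPM with ponatinib and 3.64 to 6.62 TPM with DMSO, and 3 of 11 reached 1 TPM in any library. The means of 9 of the 11 were higher with ponatinib, as Ccl9 and Ccl22 were: Lyz2 was at 2.81, 1.54 and 1.13 TPM in the ponatinib libraries and 0.0422, 0.260 and 0.106 TPM in the DMSO libraries, and Cd68 at 2.51 ± 0.0824 TPM with ponatinib and 1.63 ± 0.248 TPM with DMSO. Mpeg1 went the other way, at 1.05 ± 0.0923 TPM with ponatinib and 2.62 ± 1.45 TPM with DMSO. Dendritic cell markers summed to 141 to 157 TPM with ponatinib and 95.8 to 129 TPM with DMSO, mostly Cd74, while Siglech and Cd209a were at 0 in all libraries and Flt3 and Clec9a stayed under 0.1 TPM. Every ponatinib library was above every DMSO library for Cd74 (121, 131 and 117 TPM with ponatinib and 86.7, 82.1 and 86.3 TPM with DMSO), H2-Aa (12.9 ± 0.789 TPM with ponatinib and 3.63 ± 3.41 TPM with DMSO) and Itgax (all under 0.4 TPM), and below for H2-Ab1. NK cell markers summed to 0.846 to 0.985 TPM with ponatinib and 0.0621 to 0.448 TPM with DMSO, and 0 of 5 reached 1 TPM. The means of all 5 NK cell markers were higher with ponatinib. Markers of CD4 T cells summed to 17.3 to 20.8 TPM with ponatinib and 5.58 to 9.73 TPM with DMSO, and 5 of 5 reached 1 TPM. B cell markers summed to 179 to 197 TPM with ponatinib and 154 to 171 TPM with DMSO, mostly Ighm, and 4 of 8 reached 1 TPM. The means of all 8 were higher with ponatinib. Ighm itself was at 142 ± 12.2 TPM with ponatinib and 142 ± 17.2 TPM with DMSO, whereas Igkc was at 25.3 ± 1.83 TPM with ponatinib and 7.99 ± 7.91 TPM with DMSO, and Cd79b at 13.4 ± 0.832 TPM with ponatinib and 8.11 ± 1.39 TPM with DMSO. Granulocyte and mast cell markers summed to 0.687 to 1.69 TPM with ponatinib and 0 to 0.304 TPM with DMSO, with Retnlg and Ly6g at 0, and erythroid and platelet markers summed to 3.74 to 7.88 TPM with ponatinib and 0.854 to 1.84 TPM with DMSO, with Gp9 at 0. Single markers were named after their values were seen. The part of these other cells in the chemokine levels was not tested.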

How the data were processed

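RNA-seq libraries had been made with a NEBNext Ultra II RNA kit, per the labels' protocols, which do not say whether strand was kept. The authors deposited 1 table of TPM: each column adds up to 1000000, although the table speaks of normalized counts. Salmon 1.5.1, fastp 0.19.5, DESeq2 1.22.1 and GRCm38 appear in the submitters' processing notes, without their roles. TPM keep no depth, so reads per library are unknown and no counting interval is given. Replicate spread limits the precision, and standard errors of log2 differences had a median of 0.07.

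The table held 43072 rows, 22095 of them gene rows and 20977 transcript rows; gene rows held 92.9% to 93.2% of TPM. Names and positions came from GENCODE M21, which matched 22011 gene rows. Of these, 11 carried the same identifier version as M21 and 20924 the next higher one, so the authors' annotation was another release. No 31-base word of the GENCODE transcripts of Ccl1, Xcl1, Ccl3, Ccl4, Ccl22 or Cxcl10 occurs in another gene's transcripts; 0.539% of those of Ccl5 and 3.75% of those of Ccl9 do. Xcl1 also overlaps a non-coding gene on the other strand that was not analysed here.

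A gene row was kept when its 6 values averaged 10 TPM or more, which left 6466. Ponatinib was compared with DMSO on log2(TPM + 1), which understates changes of low genes, with limma 3.58.1 (trended eBayes, R 4.3.3), two-sided, and genes were called at a Benjamini-Hochberg adjusted p under 0.05 over all kept rows. Every adjusted p is from such a fit. "Rose", "fell", "higher" and "lower" in gene list counts mean called. The fit was tested on simulated data. The chemokine genes, gene lists and motifs were chosen with earlier results of these data known, and no list was tested as a set. Named genes were the 8 chemokines, their receptors, up to 4 kept genes of smallest p per list, the 3 most similar profiles per chemokine, and kept neighbours. Alternatives were another pseudocount, other filters, added transcript rows, medians of ratios, robust eBayes, a replicate block and leaving out each library. Deviations from the group mean correlated at -0.0979, 0.127 and 0.00937 between libraries of the same replicate number. Between unlike numbers the range was -0.157 to 0.113. With only 3 libraries per group, these values cannot decide whether the numbers mark pairs. Values of some genes on these lists are not reported here.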

Additional observations from a re-analysis of the deposited data

How the results depend on the processing

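The counts of all kept genes depended on the scaling and on single libraries. With 1931 higher and 639 lower genes in the deposited scaling, medians of ratios gave 1059 and 1166, which moves the share of calls that were higher from 75.1% to 47.6% and the median of all kept genes from 0.10 to 0.00. Leaving out 1 library gave 1138 to 2745 higher genes and 463 to 677 lower ones. Leave-one-out counts of higher genes were 6 to 12 for receptor signalling, 2 to 7 for mRNA turnover, 5 to 11 for transcription factors and 6 to 12 for the interferon gamma axis, where 0 to 1 were lower. Medians of ratios gave 6 higher for receptor signalling, 3 for mRNA turnover and 2 lower for the interferon gamma axis. With a replicate block 1911 genes were higher and 646 lower, 0 of the interferon gamma axis were lower, and Sft2d2 and H2-Ab1 passed (adjusted p of 0.0331 and 0.0453). Sft2d2 and H2-Ab1 averaged under 10 TPM with ponatinib and were kept only through the DMSO libraries. Filters changed short lists. With a minimum mean of 1 TPM 2 other chemokine receptors were higher and 2 lower, and 1 carrier gene was lower. Ccr9 and Ccrl2, which passed that minimum through 1 group alone, are among those receptors. All 10039 rows then gave 2398 higher and 958 lower. With no filter 3 of those receptors were higher and 2 lower, 3 other chemokines were higher, and 1 carrier gene was higher and 1 lower. All 15090 rows without a filter gave 2297 higher and 940 lower. Those 3 other chemokines stayed under 1 TPM in every library. With 1 library left out 0 or 1 of those receptors was higher. Isg20 ranged between -0.57 and 0.35 with 1 library left out, with 0.35 without DMSO replicate 3. Of the chemokines, Ccl1, Ccl9 and Ccl22 moved by more than their replicate spread with a pseudocount of 0.1, to 8.63, 1.84 and 1.94, and Ccl3 and Ccl4 with medians of ratios, to 0.96 and 0.86; adding transcript rows moved none. Leaving out libraries at the 1 TPM minimum was added after seeing the data. The causes were not tested. Unknown depth limits the values under 2 TPM most.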
